A study of Homo sapiens with 18 samples.

Results

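BASP1, 3 of its relatives (GAP43, MARCKS and MARCKSL1) and the 4 enzymes that prepare and carry out N-terminal myristoylation (METAP1, METAP2, NMT1 and NMT2) were followed across 3 derivatives of K562, an established human leukemia cell line. These 8 genes were taken by symbol from the 28395 genes of the RNA-seq tables, and 25 of the 85549 merged ATAC-seq regions lay within 5 kb of them. The control derivative V-K562 held an empty vector, B-K562 a wtBASP1 construct, and G-K562 the BASP1-G2A construct, in which the glycine at position 2 is replaced by alanine. All 3 derivatives were stably transfected, selected as a pool and kept in G-418, and 3 cultures of each were profiled by RNA-seq and 3 by ATAC-seq. Each construct is thus represented by 1 pool, so that an effect of the construct and the history of its pool cannot be told apart, and p-values measure the spread between cultures of a pool. The comparisons of the BASP1 lines with V-K562 cells use the same V-K562 libraries.

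BASP1, GAP43, MARCKS and MARCKSL1 are acidic proteins that associate with the inner face of the plasma membrane, bind calmodulin or the phospholipid PIP2, are phosphorylated by protein kinase C, and are best known from growing neurons. BASP1 also acts in the nucleus as a corepressor of the transcription factor WT1. Myristoylation begins when a methionine aminopeptidase (METAP1 or METAP2) removes the first methionine of a nascent protein, which exposes the glycine at position 2. An N-myristoyltransferase (NMT1 or NMT2) then joins the fatty acid myristate to that glycine, and without the glycine the reaction cannot take place.

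The first 30 coding bases of the 4 relatives are shown because the mutation in G-K562 cells lies in the second codon, which is printed in capitals. They were read 5′ to 3′ on the coding strand from GRCh38 at the start codons of the GENCODE v44 canonical transcripts.
BASP1: atgGGAggcaagctcagcaagaagaagaag
MARCKS: atgGGTgcccagttctccaagaccgcagcg
MARCKSL1: atgGGCagccagagctccaaggctccccgg
GAP43: atgCTGtgctgtatgagaagaaccaaacag
The second codon is GGA in BASP1 (chr5:17275217-17275246, plus strand), GGT in MARCKS (chr6:113857746-113857775, plus strand) and GGC in MARCKSL1 (chr1:32336004-32336033, minus strand), and all of these stand for glycine. That of GAP43 (chr3:115623690-115623719, plus strand) is CTG, which does not, and GAP43 is known to be anchored through palmitate on cysteines instead. The whole BASP1 coding sequence of 681 bases lies in a single exon, whereas those of MARCKS and MARCKSL1 are split over 2 exons and that of GAP43 over 3.

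The RNA-seq values are read counts normalised by the authors within each table of a BASP1 line and V-K562, and their totals were 32074895 to 33229588 per library. From the steps that rounding left in the values, about 28914432 to 37039975 reads per library fell on genes. The same V-K562 libraries read 1.015 to 1.02 times higher in the G-K562 table than in the B-K562 table, and the V-K562 values printed here are those of the B-K562 table. Between 47111 and 55570 ATAC-seq peaks were called per library. All 10 listed K562 genes (globins, GATA1, KLF1 and others) had values of at least 10 in every library, with sums of 129382 to 145367 (V-K562), 223159 to 227161 (B-K562) and 69809 to 75627 (G-K562). All 10 were higher in B-K562 than V-K562 cells, and 9 of 10 were lower in G-K562 cells (adjusted p of at most 0.05). Of the neuronal markers, in whose cells these relatives are best known, 2 of 6 (SYP and TUBB3) reached 10 in every library, STMN2 was at 0 throughout, and their sums were 376 to 491. The lymphoid markers summed to 244 to 696, with MS4A1 at 0, and the stromal markers to 915 to 1797, with DCN and LUM at 65.1 and 62.0 in the first B-K562 library and at most 20 and 4 in the others. The part of these shifts in the results below was not tested, and in bulk RNA a smaller share of cells with a transcript and less RNA per cell cannot be told apart.

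BASP1 (Entrez 10409, chr5:17216823-17276845) was close to silent without a construct. Its normalised read counts were 7, 5 and 7 in the 3 V-K562 libraries. They were 6849, 6618 and 6189 in B-K562 and 9323, 12538 and 8124 in G-K562 libraries. Both BASP1 lines lay far above V-K562, by 9.82 (SE 0.12) and 10.40 (SE 0.16) on the scale of log2(value + 1), which understates the change of a gene this low in V-K562 cells. This checks the labels of the 9 RNA-seq libraries, but it does not tell the wild-type from the mutant construct. BASP1 passed the filter on low values only through the libraries of the BASP1 lines, which carry it by construction. Its rise over V-K562 is therefore described without a p-value.

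BASP1 RNA was also higher in G-K562 than B-K562 cells. With the B-K562 values brought to the scale of the other table, the means were 6663 ± 341 in B-K562 and 9995 ± 2282 in G-K562 libraries (SD, n = 3), a ratio of 1.5. The difference was 0.56 on the log2 scale (SE 0.14, adjusted p = 0.0019), values of these lines did not overlap, and the G-K562 libraries were the more spread. With any 1 library left out it stayed between 0.39 and 0.70. The values of all later comparisons between B-K562 and G-K562 cells therefore also come from lines that differ in the amount of BASP1 RNA.

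**Figure D1:**
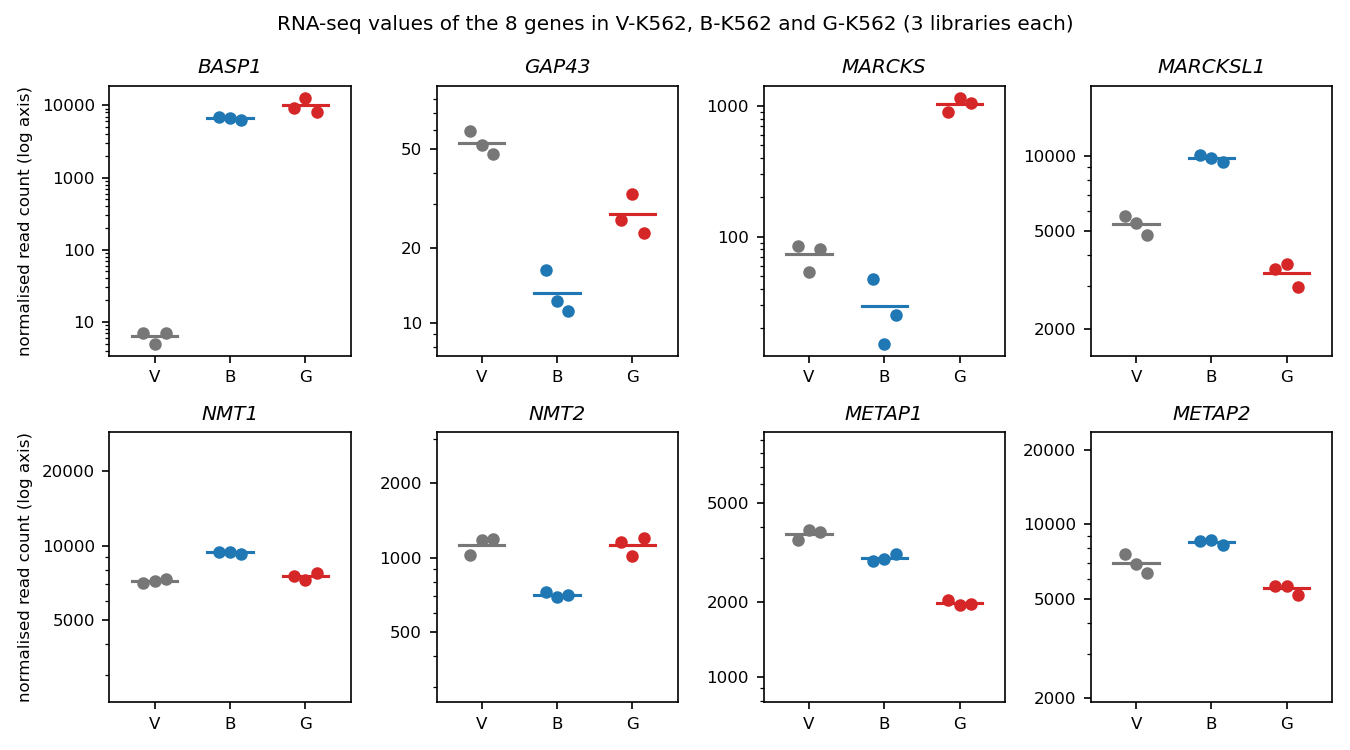
Normalised read counts of the 8 genes (log axes, a panel per gene) in the 3 V-K562 (V), 3 B-K562 (B) and 3 G-K562 (G) libraries, on the scale of the G-K562 table; points are libraries and lines are means of 3. BASP1 lies at 5 to 7 in V-K562 libraries and between 6294 and 12538 in the others, and MARCKS at 85 or less in V-K562 and B-K562 libraries and at 894 to 1143 in G-K562 libraries.

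The called ATAC-seq peaks at BASP1 lay over its coding sequence. No library of any line had a called peak at the annotated BASP1 start, and the gene and its 5 kb flanks held a single region, chr5:17275124-17275897. It had a peak in all 3 B-K562 libraries (57, 47 and 46 tags at the summit) and in all 3 G-K562 libraries (63, 50 and 63 tags) and in none of the V-K562 libraries. Only 217 of the 85549 regions (0.254%) had that pattern of peaks. The GENCODE v44 coding sequence occupies chr5:17275217-17275897, and between 87.6% and 97.3% of each of the 6 intervals lay within it. The intervals began 17 to 93 bp before the start codon and ended 0 to 75 bp before the last coding base, and all 6 summits lay 79 to 175 bp inside. The 300 bases around the summit of G-K562 replicate 3 are printed to show what was accessible, and the capitals mark the second codon, the site of the G2A change (chr5:17275211-17275510, GRCh38, plus strand).
BASP1 coding sequence at the summit: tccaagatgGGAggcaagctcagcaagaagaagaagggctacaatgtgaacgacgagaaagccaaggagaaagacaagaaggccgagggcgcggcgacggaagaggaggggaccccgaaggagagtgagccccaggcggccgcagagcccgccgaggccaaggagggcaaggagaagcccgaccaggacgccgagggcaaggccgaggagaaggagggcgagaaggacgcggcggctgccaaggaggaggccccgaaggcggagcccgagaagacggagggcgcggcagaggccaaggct
The reference bases are shown and not the reads, so the GGA codon is the wild-type codon also where the G-K562 tags aligned. Tags from an introduced coding sequence and tags from the chromosomal exon align to the same bases and cannot be told apart, and the same holds for the RNA-seq reads of BASP1. Regions were tested with limma after scaling the libraries by a trimmed mean, and a library without a called peak was set to 17 tags, the 5th percentile of summits. A region without a peak in any library of a line passes the filter only through the other line and meets a constant there, so its size and p-value follow from the floor. For BASP1 and each other such region the pattern of peaks is therefore given as a description, without a test. Between the BASP1 lines the difference was 0.01 on the log2 scale (95% interval -0.37 to 0.39), and the RNA and ATAC-seq differences were not tested against each other.

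**Figure D2:**
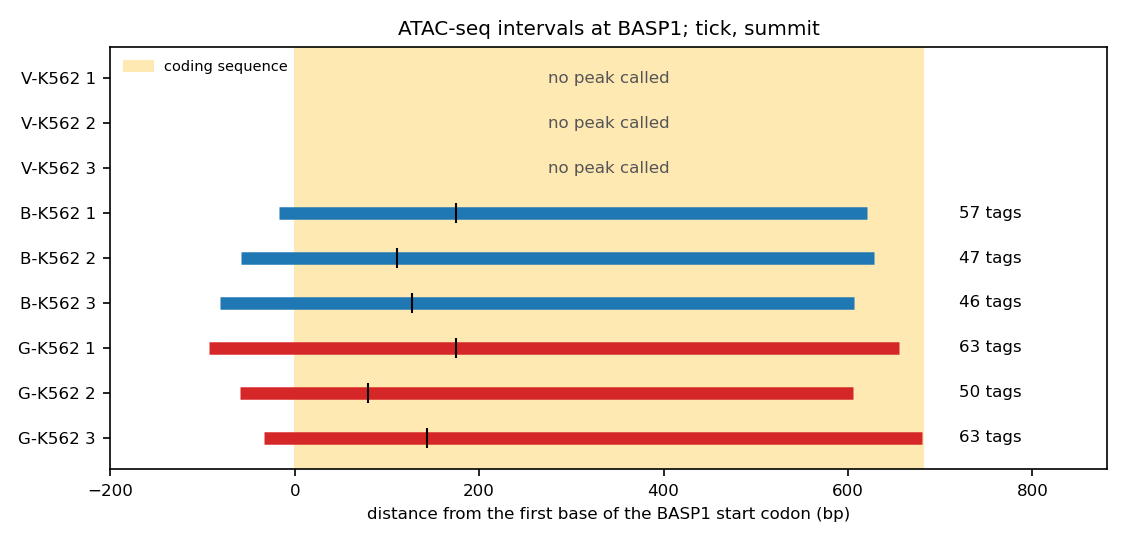
ATAC-seq intervals called at BASP1 in each of the 9 libraries, by distance in bp from the first base of the start codon; bars are intervals, black ticks summits, the shaded block the coding sequence of 681 bases, and the numbers the tags at the summit. The 6 intervals of the BASP1 lines cover 89.0% to 100% of the coding sequence, and no peak was called in the V-K562 libraries.

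Among the relatives, MARCKS (Entrez 4082, chr6:113857335-113863475), a myristoylated protein kinase C substrate that cross-links actin and sequesters PIP2, had the largest difference in both comparisons with G-K562 cells, while GAP43 had the larger one between B-K562 and V-K562 cells. Its normalised read counts were 84, 53 and 80 in V-K562, 47, 15 and 25 in B-K562 and 894, 1143 and 1043 in G-K562 libraries. The B-K562 libraries all lay below the V-K562 libraries and the G-K562 libraries far above both. In B-K562 cells MARCKS fell by 1.41 (log2, SE 0.32, adjusted p = 0.0013), and it rose in G-K562 cells by 3.81 (SE 0.16, adjusted p = 4.9e-09), which is 14 times the mean of V-K562. The BASP1 lines differed directly by 5.21 (SE 0.30, adjusted p = 8.1e-10), a ratio of means of 34.8. The fall rested on low values with a wide spread (29.0 ± 16.4 in B-K562, SD, n = 3) and ranged from -1.82 to -1.03 as 1 library was left out.

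At 2 sites beside the MARCKS start, chromatin was also more accessible in G-K562 than V-K562 cells. The region at the start itself had a called peak in 1 library, G-K562 replicate 3 (39 tags), and was not tested. A region upstream, chr6:113854767-113855212, with its summit at -2359 bp from the start and outside annotated genes, had summits of 24, 29 and 27 tags in V-K562, 30, 38 and 32 in B-K562 and 49, 67 and 59 in G-K562 libraries. Summits are given before scaling. This region was higher in G-K562 than V-K562 cells by 0.75 (SE 0.19, adjusted p = 0.017) and was not called between the BASP1 lines (0.57, SE 0.19, adjusted p = 0.052; called in 6 alternatives). A region in the MARCKS intron, chr6:113858830-113859216, had no called peak in the first V-K562 library and 24 and 27 tags in the others, 29, 27 and 25 in B-K562 and 62, 60 and 53 in G-K562 libraries. The intron region was called higher in G-K562 than V-K562 cells (adjusted p = 0.011, the missing library set to the floor) and by 0.87 than in B-K562 cells (SE 0.23, adjusted p = 0.019), and neither region was called between B-K562 and V-K562 cells (adjusted p = 0.57 and 0.62). The upstream call was lost without G-K562 replicate 2 or 3 (adjusted p = 0.061 and 0.058), and the intron call with scaling within bins of GC content (0.81, adjusted p = 0.057). The difference from B-K562 at the intron lost its call without B-K562 replicate 3 or G-K562 replicate 1 or 2 (adjusted p = 0.057, 0.062 and 0.060) and with the floor at the lowest summit (adjusted p = 0.10).

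The windows around these MARCKS summits are shown because they are the 2 places where chromatin rose with MARCKS RNA. Capitals mark the central 20 bases, at the summit of the library with the most tags (chr6:113854827-113855126 and chr6:113858859-113859158, GRCh38, plus strand).
MARCKS upstream: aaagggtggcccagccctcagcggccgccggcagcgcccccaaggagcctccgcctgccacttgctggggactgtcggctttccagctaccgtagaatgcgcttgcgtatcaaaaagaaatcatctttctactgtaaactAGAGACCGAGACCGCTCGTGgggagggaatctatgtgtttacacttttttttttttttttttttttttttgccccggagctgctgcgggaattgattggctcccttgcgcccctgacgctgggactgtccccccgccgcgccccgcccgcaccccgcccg
MARCKS intron: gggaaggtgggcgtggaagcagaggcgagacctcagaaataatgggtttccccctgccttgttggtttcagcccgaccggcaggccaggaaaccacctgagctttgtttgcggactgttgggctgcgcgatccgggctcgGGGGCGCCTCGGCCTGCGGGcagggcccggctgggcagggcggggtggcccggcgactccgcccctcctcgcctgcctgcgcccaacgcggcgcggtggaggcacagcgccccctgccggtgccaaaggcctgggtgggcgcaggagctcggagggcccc
The windows hold 58.7% and 72.3% G and C. On neither strand do they hold the motif of GATA factors, AGATAA, which was found in 22.8% of the 300-base windows of all 60181 regions tested. The AP-1 letters TGANTCA were not found either (19.7% of all windows). The letters GCGGGGGCG of EGR factors and WT1 (2.55%) and GGGGCGGGG of SP and KLF factors (8.53%), which can overlap one another, were also not found.

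MARCKSL1 (Entrez 65108, chr1:32333829-32336239), the MARCKS-like myristoylated relative, moved in the opposite sense to MARCKS in both BASP1 lines. Its values were 5654, 5315 and 4697 in V-K562, 9921, 9670 and 9304 in B-K562 and 3507, 3663 and 2973 in G-K562 libraries, with no overlap between lines. MARCKSL1 rose in B-K562 cells by 0.89 (SE 0.06, adjusted p = 1.8e-08) and in G-K562 cells it fell by 0.65 (SE 0.09, adjusted p = 4.3e-05). The mean of G-K562 cells was 2.90 times below that of B-K562 cells (log2 difference -1.54, SE 0.08, adjusted p = 2.2e-10). Per kilobase of exon, MARCKSL1 exceeded MARCKS 208 ± 59.3-fold in V-K562, 1128 ± 604-fold in B-K562 and 9.17 ± 1.51-fold in G-K562 libraries (SD, n = 3).

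Of the 5 regions of MARCKSL1, the one furthest upstream had peaks mostly in V-K562 libraries. At chr1:32339571-32339884, with its summit at -3473 bp from the start and outside annotated genes, the V-K562 libraries had 50, 55 and 54 tags, the first B-K562 library 46, and no peak was called in the other B-K562 or in any G-K562 library. The difference between B-K562 and V-K562 cells (adjusted p = 0.035, with 2 libraries at the floor) was lost in 7 of 12 alternatives. Its window (chr1:32339563-32339862, GRCh38, plus strand) is shown with its 2 AP-1 matches in capitals.
MARCKSL1 upstream: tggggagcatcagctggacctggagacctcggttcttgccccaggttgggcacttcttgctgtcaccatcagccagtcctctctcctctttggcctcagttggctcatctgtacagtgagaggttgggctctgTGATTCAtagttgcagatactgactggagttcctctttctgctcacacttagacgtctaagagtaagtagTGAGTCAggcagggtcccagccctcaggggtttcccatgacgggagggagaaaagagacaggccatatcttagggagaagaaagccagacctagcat
The start region (chr1:32335896-32336471, exon and coding sequence included) had 58, 68 and 70 tags in V-K562, 66, 82 and 76 in B-K562 and 51, 65 and 61 in G-K562 libraries, which overlap before scaling. After scaling it was lower in G-K562 than V-K562 cells by 0.49 (SE 0.16, adjusted p = 0.039) and than in B-K562 cells by 0.55 (SE 0.15, adjusted p = 0.021). Both calls were lost without scaling (-0.15, adjusted p = 0.47, and -0.34, adjusted p = 0.10), a choice that moved the median over all regions from -0.10 to 0.19 in the comparison of G-K562 with V-K562 cells, and each without 4 of the 6 libraries in turn (adjusted p up to 0.10 and 0.074). The neighbouring region in coding sequence, chr1:32335092-32335530, had 57, 57 and 71 tags in V-K562, 56, 58 and 56 in B-K562 and 41, 53 and 59 in G-K562 libraries. It was lower in G-K562 than V-K562 cells by 0.62 (SE 0.19, adjusted p = 0.031), a call lost without scaling (-0.28, adjusted p = 0.26) and without 5 of the 6 libraries in turn (adjusted p up to 0.098). The other 2 MARCKSL1 regions each had a peak in 1 library.

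GAP43 (Entrez 2596, chr3:115623304-115721487), the growth cone protein without the glycine, fell in both BASP1 lines. Its low values were 58, 51 and 47 in V-K562, 16, 12 and 11 in B-K562 and 26, 33 and 23 in G-K562 libraries, and the lines did not overlap. The mean of B-K562 was 4 times and that of G-K562 1.94 times below that of V-K562, with log2 differences of -1.93 (SE 0.23, adjusted p = 3.6e-06) and -0.94 (SE 0.20, adjusted p = 0.0015). GAP43 was higher in G-K562 than B-K562 cells by 0.996 (SE 0.22, adjusted p = 0.00097). No peak was called at its start in any library. The region in its intron with peaks in all 9 libraries (chr3:115658274-115659128, which also overlaps an exon of a long noncoding RNA) had 25 to 30 tags (V-K562), 39 to 42 (B-K562) and 45 to 54 (G-K562), and after scaling no comparison called it (adjusted p = 0.17, 0.074 and 0.91).

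The N-myristoyltransferases moved in opposite directions in B-K562 cells and were not called in G-K562 cells. NMT1 (Entrez 4836, chr17:45061283-45109016), the main transferase of most cells, had values of 6932, 7067 and 7199 in V-K562, 9299, 9241 and 9130 in B-K562 and 7521, 7291 and 7716 in G-K562 libraries. NMT2 (Entrez 9397, chr10:15105700-15168705) had 1004, 1162 and 1164 in V-K562, 713, 683 and 692 in B-K562 and 1152, 1018 and 1199 in G-K562 libraries. The B-K562 libraries stood apart from both other lines in each gene, high for NMT1 and low for NMT2. NMT1 rose in B-K562 cells by 0.38 (SE 0.04, adjusted p = 1.8e-06) and NMT2 fell by 0.67 (SE 0.07, adjusted p = 7.5e-07). Between G-K562 and V-K562 cells NMT1 differed by 0.06 (95% interval -0.05 to 0.18, adjusted p = 0.30) and NMT2 by -0.0081 (95% interval -0.19 to 0.18, adjusted p = 0.94), and the lines overlapped. G-K562 cells had less NMT1 than B-K562 cells by 0.32 (SE 0.04, adjusted p = 7.1e-06) and more NMT2 by 0.66 (SE 0.08, adjusted p = 1.5e-06). Per kilobase, NMT1 exceeded NMT2 5.57 ± 0.39-fold in V-K562, 11.6 ± 0.22-fold in B-K562 and 5.85 ± 0.34-fold in G-K562 libraries (SD, n = 3), and the B-K562 range did not overlap the others.

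Of the start regions of the transferases, that of NMT1 was called in G-K562 cells alone and that of NMT2 in no comparison. The region at the NMT1 start (chr17:45060875-45061742, shared with the start of DCAKD on the other strand) had 240, 205 and 188 tags in V-K562, 325, 275 and 289 in B-K562 and 346, 311 and 387 in G-K562 libraries. After scaling it was 0.34 higher in B-K562 (SE 0.11, adjusted p = 0.056, called in 4 alternatives) and 0.37 higher in G-K562 than V-K562 cells (SE 0.11, adjusted p = 0.034), and the BASP1 lines differed by 0.01 (95% interval -0.23 to 0.26). The call in G-K562 cells was lost without any of 5 of the 6 libraries, all but the first V-K562 library (adjusted p up to 0.13), and with the mean pileup (0.12). The NMT2 start (chr10:15168358-15169290) had 85 to 105 tags (V-K562), 115 to 122 (B-K562) and 105 to 147 (G-K562), and was called in no comparison (adjusted p = 0.51, 0.83 and 0.75).

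A region in an NMT2 intron had peaks in the V-K562 libraries alone (20, 25 and 36 tags), close to the floor of 17. Peaks in all 3 V-K562 libraries and no other were found in 1525 of 85549 regions (1.78%). The other NMT1 region and the NMT2 region chr10:15106415-15106809 were tested in every comparison and called in none. The NMT2 regions chr10:15163546-15163794 and chr10:15167806-15168075 were not tested in any comparison. The first had a peak only in V-K562 replicate 1 (30 tags), the second only in B-K562 replicates 1 and 2 (44 and 41 tags).

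The methionine aminopeptidases, which act before the transferases, also differed from each other. METAP1 (Entrez 23173, chr4:98995637-99062809) had values of 3493, 3851 and 3749 in V-K562, 2888, 2930 and 3060 in B-K562 and 2032, 1943 and 1961 in G-K562 libraries. METAP1 was lower in both BASP1 lines, without overlap, and lowest in G-K562 cells. It fell by 0.32 in B-K562 (SE 0.05, adjusted p = 5.6e-05) and by 0.93 in G-K562 cells (SE 0.06, adjusted p = 1.1e-07), and the lines differed by -0.60 (SE 0.05, adjusted p = 5.2e-08). METAP2 (Entrez 10988, chr12:95474046-95515839), which is the target of fumagillin, had 7491, 6794 and 6214 in V-K562, 8422, 8466 and 8130 in B-K562 and 5656, 5662 and 5207 in G-K562 libraries. METAP2 rose by 0.29 in B-K562 (SE 0.06, adjusted p = 0.0006) and fell by 0.33 in G-K562 cells (SE 0.07, adjusted p = 0.0014). The direct difference was -0.62 (SE 0.06, adjusted p = 3.3e-07). Per kilobase, METAP2 exceeded METAP1 3.53 ± 0.49-fold in V-K562, 5.36 ± 0.27-fold in B-K562 and 5.29 ± 0.25-fold in G-K562 libraries (SD, n = 3).

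Chromatin at the METAP2 start went the other way from METAP2 RNA in G-K562 cells. The start region (chr12:95473749-95474322) had 151, 201 and 193 tags in V-K562, 238, 260 and 205 in B-K562 and 398, 407 and 430 in G-K562 libraries. All G-K562 libraries lay above all others. The region was higher in G-K562 than V-K562 cells by 0.84 (SE 0.11, adjusted p = 0.00096) and than in B-K562 cells by 0.60 (SE 0.11, adjusted p = 0.0034), both held in every alternative run, and it was not called in B-K562 cells (0.22, SE 0.13, adjusted p = 0.24). A second region, chr12:95516730-95517157, lies past the METAP2 end in an exon of USP44. It had 40, 55 and 54 tags in V-K562 and 64, 54 and 59 in B-K562 libraries and no called peak in the G-K562 libraries.

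METAP1 had a region with the same pattern. At chr4:99023782-99024362, in an exon of the gene model of the RNA-seq tables and outside the exons of the GENCODE canonical transcript, the V-K562 libraries had 42, 46 and 28 tags and the B-K562 libraries 69, 64 and 66, and no peak was called in G-K562 libraries. It was 0.64 higher in B-K562 than V-K562 cells (SE 0.21, adjusted p = 0.058, called in 3 alternatives). Peaks in all 6 V-K562 and B-K562 libraries and in no G-K562 library were found in 2659 of 85549 regions (3.11%). The METAP1 start (chr4:98995107-98996118) had 186, 222 and 190 tags in V-K562, 213, 255 and 246 in B-K562 and 345, 302 and 307 in G-K562 libraries and was 0.32 higher in G-K562 than V-K562 cells (SE 0.09, adjusted p = 0.025), but with scaling within bins of GC content the difference was -0.07 (adjusted p = 0.64). That call was also lost without V-K562 replicate 1 or 3 or G-K562 replicate 1 or 2 (adjusted p = 0.065 to 0.082). A METAP1 intron region, chr4:99055998-99056382, had 23, 25 and 28 tags in V-K562 libraries, 19 and 22 in B-K562 libraries 1 and 2, and 35 and 24 in G-K562 libraries 1 and 2. It was called lower in B-K562 than V-K562 cells (adjusted p = 0.042), a call lost without 5 of the 6 libraries and in 9 of 12 alternatives in all.

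**Figure D3:**
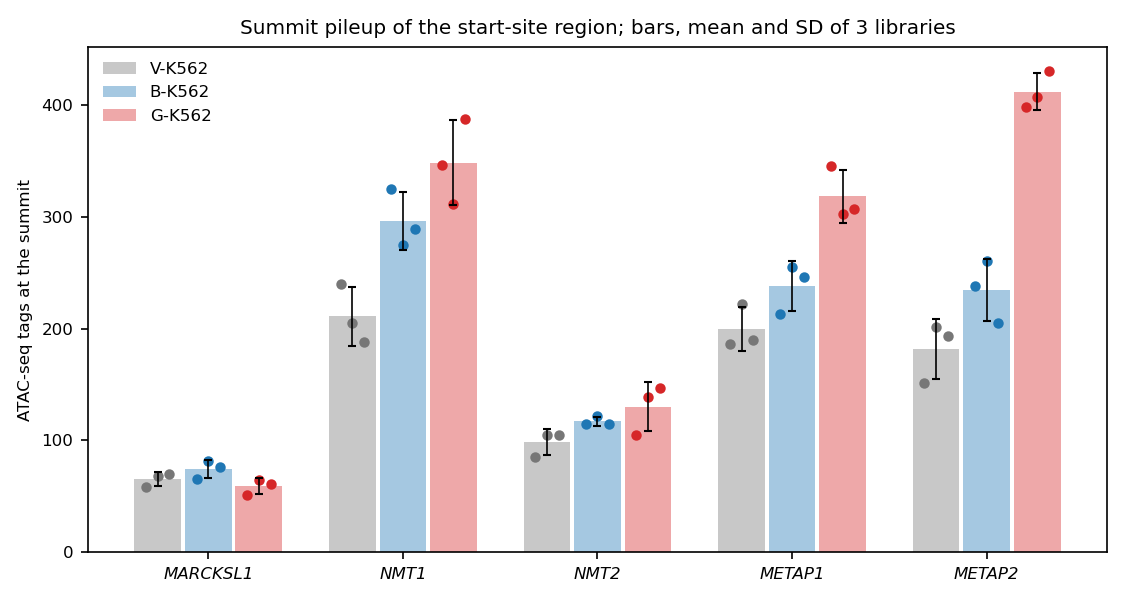
ATAC-seq tags at the summit, before scaling, of the start regions with a peak in all 9 libraries; bars are means and whiskers SDs of 3 libraries per line, and points are libraries. METAP2 separates the G-K562 libraries (398 to 430 tags) from all others (151 to 260 tags), and the MARCKSL1 lines overlap.

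Levels were compared between genes only per kilobase of merged exon, on the scale of the G-K562 table. In V-K562 cells MARCKSL1 was highest (3399 ± 308 per kb), followed by METAP2, NMT1, METAP1, NMT2, GAP43, MARCKS and BASP1 (3.23 ± 0.59 per kb), with no overlap between neighbours in this order. In B-K562 cells the order was MARCKSL1 (6271 ± 202), BASP1 (3394 ± 174), METAP2, NMT1, METAP1, NMT2, MARCKS and GAP43, of which the last pair overlapped. In G-K562 cells BASP1 was highest (5092 ± 1163), followed by MARCKSL1, METAP2, NMT1, METAP1, MARCKS (238 ± 29.1), NMT2 (219 ± 18.3) and GAP43, and MARCKS and NMT2 overlapped. The BASP1 level uses the exon length of the chromosomal gene, and the length of the introduced transcript is not given in the sources used here.

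All 8 genes were tested in each comparison. The calls against V-K562 cells include BASP1, whose rise was set by its constructs. Between B-K562 and V-K562 cells 8 of 8 were called at an adjusted p of at most 0.05, where 75.8% of the 14958 genes tested were (38.6% higher, 37.2% lower). Between G-K562 and V-K562 cells 6 of 8 were called, against 66.9% of 15271 genes (33.5% higher, 33.3% lower), and between G-K562 and B-K562 cells 8 of 8, against 78.5% of 15521 genes (38.1% higher, 40.5% lower). Values did not overlap between lines in 8, 6 and 8 of the 8 genes, against 77.8%, 70.2% and 81% of all genes. With these backgrounds the number of calls is no feature of the group. At least 2-fold changes were called in 3, 2 and 2 of the 8 genes (BASP1, GAP43 and MARCKS, then BASP1 and MARCKS, then MARCKS and MARCKSL1), against 20.6%, 19.1% and 29.9% of all genes. The directions were mixed in each comparison: 4 higher and 4 lower in B-K562 cells, 2 higher and 4 lower in G-K562 cells, and 4 higher and 4 lower in G-K562 relative to B-K562 cells. The median log2 difference of the 8 genes was -0.015, -0.17 and 0.12, beside 0.0072, 0.0027 and -0.023 over all genes tested. All 22 calls held in every alternative in which the gene was tested. Of the 8 genes 2, MARCKSL1 and METAP2, rose in B-K562 and fell in G-K562 cells, and 1, MARCKS, did the reverse. The share of all genes with such opposite calls was not computed.

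**Figure D4:**
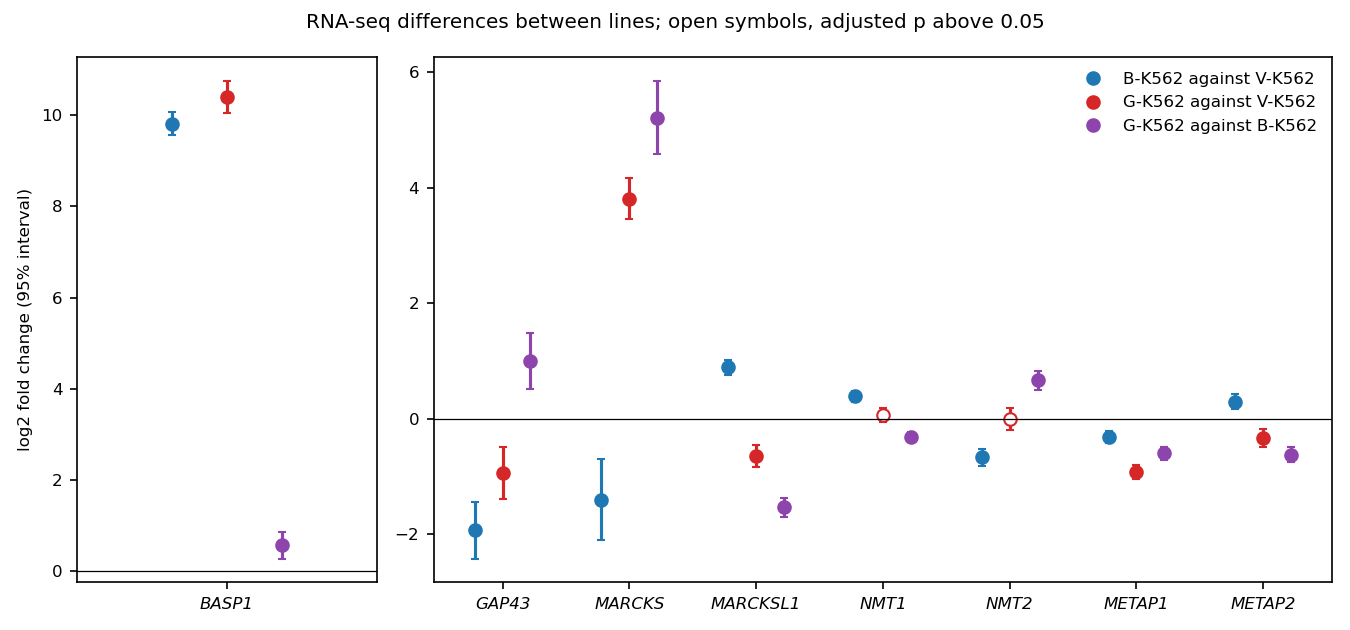
Differences in RNA between lines on the scale of log2(value + 1), with 95% intervals from limma; BASP1 has its own axis, and open symbols did not reach an adjusted p of 0.05. NMT1 and NMT2 lie at 0.06 and -0.0081 in G-K562 against V-K562, and MARCKS spans -1.41 to 5.21.

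Of the 25 ATAC-seq regions, 10 had a peak in all 9 libraries and 5 in 1 library only. In B-K562 against V-K562 cells 4 of 17 tested regions were called, against 25.2% of 52204 regions (8.57% higher, 16.6% lower), and 12 of 18 in G-K562 against V-K562 cells, against 41.9% of 54213 (15.9% higher, 26% lower). Between the BASP1 lines 5 of 18 were called, against 27.9% of 60181 (12.3% higher, 15.6% lower). The calls were 1 higher and 3 lower in B-K562 cells, 6 higher and 6 lower in G-K562 cells, and 2 higher and 3 lower in G-K562 relative to B-K562 cells. The medians over all tested regions of the 8 genes were 0.10, 0.15 and 0.01 on the log2 scale, beside -0.06, -0.10 and 0 over all regions tested. Of these 21 calls, 9 were in regions without a peak in any library of a line (2 of 4, 5 of 12 and 2 of 5) and had to differ from the floor. Of the other 12, those of the METAP2 start held in every alternative run. Absence of a called peak does not mean that tags were few, since a peak caller also weighs the local background.

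**Figure D5:**
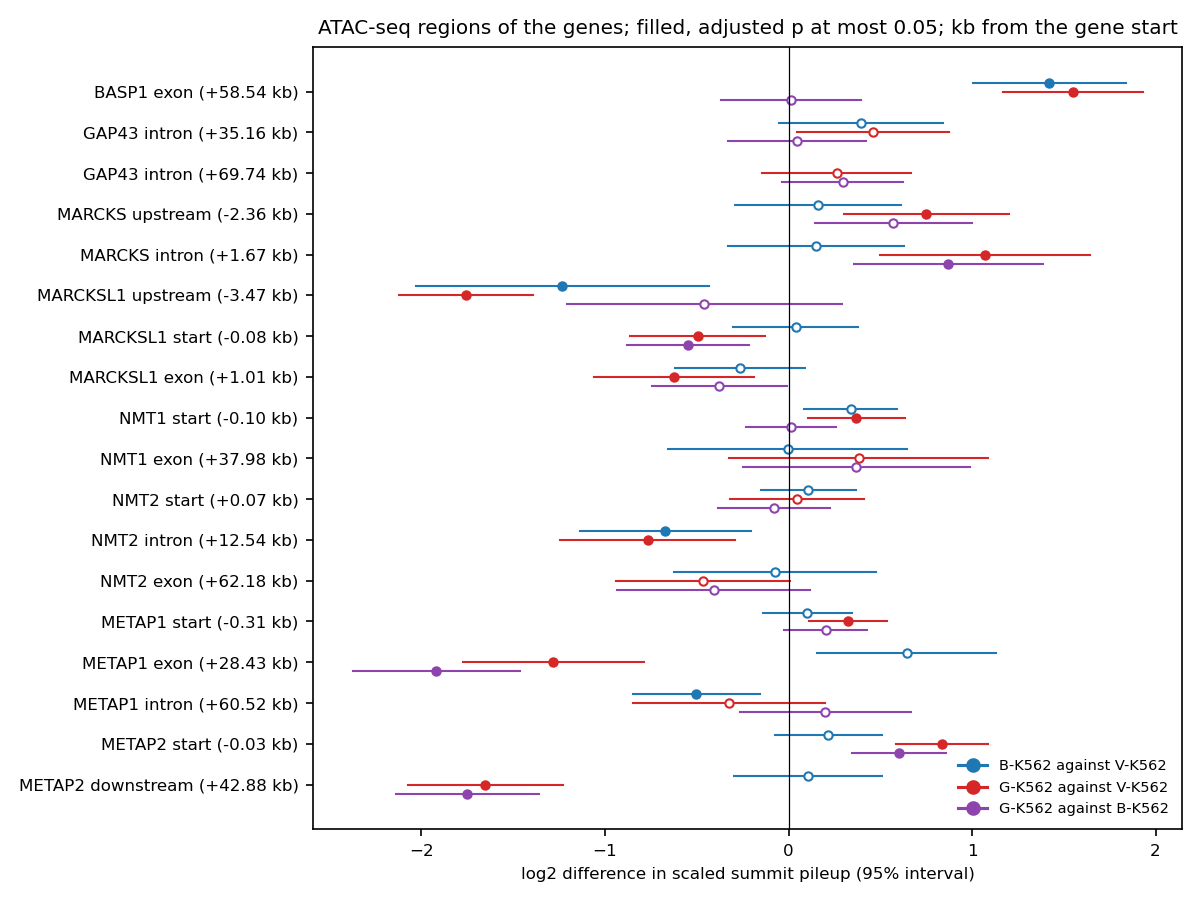
Differences in scaled summit pileup (log2, 95% intervals from limma) for the tested ATAC-seq regions of the 8 genes, with the distance of the summit from the gene start in kb; filled symbols have an adjusted p of at most 0.05. The METAP2 start lies at 0.84 and 0.60 in the comparisons with G-K562, and regions without a peak in a line were set to the floor there.

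Most of the other listed enzymes that act on nascent N-termini rose in B-K562 cells. Of 12 listed genes, which hold a mitochondrial aminopeptidase, a deformylase and the N-terminal acetyltransferase subunits, 10 were higher, 1 was lower and 1 was not called, with a median of 0.73 (all genes, 0.0072). Over all genes 38.6% were higher and 37.2% lower in that comparison. The examples with the largest rise were PDF, the mitochondrial peptide deformylase (88.0 ± 6.1 to 243 ± 11, adjusted p = 3.1e-08), NAA50 (log2 difference 0.99, adjusted p = 1.7e-08) and NAA15 (0.90, adjusted p = 2.8e-09), subunits of the NatE and NatA complexes. The lower gene was NAA11 (-0.74, adjusted p = 3.9e-06). In G-K562 against V-K562 cells 3 were higher, 5 lower and 4 not called, beside 33.5% higher and 33.3% lower over all genes, and the median was -0.19 (all genes, 0.0027). METAP1D, the mitochondrial methionine aminopeptidase, rose most (518 ± 16.1 to 1480 ± 151, log2 difference 1.51, adjusted p = 3.1e-08), ahead of NAA40 (0.74, adjusted p = 1.5e-06) and NAA60 (0.32, adjusted p = 0.0019), while NAA15 (-0.50, adjusted p = 2.6e-05), NAA20 (-0.38, adjusted p = 0.0025) and NAA25 (-0.35, adjusted p = 0.0004) fell. In G-K562 relative to B-K562 cells 8 were lower and 2 higher (all genes, 40.5% and 38.1%; median -0.65), led by NAA15 (-1.40), NAA50 (-1.22) and PDF (-1.14) below and METAP1D (0.72) and NAA11 (0.59) above, with adjusted p of at most 2.6e-05.

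The genes that make and carry acyl-CoA, the donor of myristate, showed no common direction. Of 8 genes 2 were higher and 3 lower in B-K562 cells, and 1 higher and 4 lower in G-K562 cells, where 75.8% and 66.9% of all genes were called. FASN, the fatty acid synthase, rose in B-K562 cells by 0.60 (adjusted p = 1.2e-06) and fell in G-K562 cells by 0.49 (adjusted p = 0.00043), and the lines differed by -1.08 (adjusted p = 1.1e-08). ACSL1, a long-chain acyl-CoA synthetase, fell in both, with differences of -0.78 (adjusted p = 2.8e-08) and -1.41 (adjusted p = 1.4e-07). ACBD6, an acyl-CoA-binding protein that stimulates the transferases, was 0.20 higher in B-K562 (adjusted p = 0.0014, not called with quantile normalization, 0.05, adjusted p = 0.38) and 0.25 higher in G-K562 cells (adjusted p = 0.0019). ACSL6 was lower by 0.28 in B-K562 (adjusted p = 0.022; 0.01 higher with quantile normalization) and by 0.34 in G-K562 cells (adjusted p = 0.018), calls lost without the second V-K562 library (adjusted p = 0.091 and 0.082) and, in turn, without the first B-K562 (0.073) or the first G-K562 library (0.066). ACSL3 was 0.34 lower in B-K562 than V-K562 cells (adjusted p = 2.4e-05) and 0.36 higher in G-K562 than B-K562 cells (adjusted p = 1.2e-05), and ACSL4 0.21 lower in G-K562 than B-K562 cells (adjusted p = 0.0017, or 0.066 with quantile normalization).

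Of 66 other genes listed for N-myristoylated proteins, 55 to 58 passed the filter, and their changes were spread in both directions. In B-K562 against V-K562 cells 21 were higher and 26 lower, in G-K562 against V-K562 cells 20 and 20, and in G-K562 relative to B-K562 cells 22 and 18, with medians of -0.07, -0.0027 and 0.05. Over all genes 75.8%, 66.9% and 78.5% were called in these comparisons, about evenly in both directions. CHCHD6, a subunit of the mitochondrial contact site complex, went from 1053 ± 66.6 in V-K562 down to 272 ± 17 in B-K562 (log2 difference -1.95, adjusted p = 8.5e-11). In the G-K562 table it went from 1071 ± 69.5 in V-K562 up to 2336 ± 424 in G-K562 libraries (1.11, adjusted p = 4.6e-06). The BASP1 lines differed by 3.06 (adjusted p = 5.8e-12). HID1 in B-K562 cells fell by 2.39 (adjusted p = 4.4e-07) and was higher in G-K562 than B-K562 cells by 3.0 (adjusted p = 9.3e-09). NDUFAF4, a complex I assembly factor, was 1.26 higher in B-K562 cells (adjusted p = 4.1e-10) and 1.54 lower in G-K562 than B-K562 cells (adjusted p = 4.8e-11), and CHCHD3 and NDUFB7 were 0.92 and 0.89 lower in that comparison (adjusted p = 6.5e-10 and 1.5e-07). ZNRF1 and PPP3R1, the regulatory subunit of calcineurin, rose by 0.74 and 0.68 in B-K562 cells (adjusted p = 3.3e-08 and 1.1e-07), and FMNL1, a formin, by 1.04 in G-K562 cells (adjusted p = 4.6e-07).

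At low values, 2 calcium sensors of the same list, HPCAL4 and HPCA, fell. HPCAL4 went from 24 ± 9.6 to 5.33 ± 5.51 in B-K562 libraries (adjusted p = 0.0055, or 0.053 without a trend in limma). In G-K562 libraries it was 3.67 ± 2.08, beside 25.0 ± 9.6 in V-K562 libraries on the scale of the G-K562 table. HPCA went from 17 ± 3.6 to 2.33 ± 2.52 in G-K562 libraries. Between G-K562 and V-K562 cells both passed the filter only through the V-K562 libraries, where they were high. Their falls in G-K562 libraries are therefore described without a p-value. GNAZ, a G protein subunit, fell from 46.7 ± 12 to 10.3 ± 4.2 in G-K562 libraries (adjusted p = 8.7e-05). VSNL1, another sensor, went the other way in G-K562 cells (5.33 ± 3.06 to 13.3 ± 3.5, adjusted p = 0.022), having passed the filter through them, and that call was lost without V-K562 replicate 2 or G-K562 replicate 1 or 3 (adjusted p = 0.075, 0.089 and 0.052). Against B-K562 cells VSNL1 was called 2.74 higher (adjusted p = 0.00037), again having passed the filter only through the G-K562 libraries.

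Among the partners of the relatives at the membrane, protein kinase C and calmodulin genes were called in both directions. Of 11 tested, 6 were higher and 3 lower in B-K562, 6 and 4 in G-K562, and 4 and 4 between the BASP1 lines, beside 75.8%, 66.9% and 78.5% of all genes called. PRKCH rose by 1.18 in B-K562 and 1.21 in G-K562 cells (adjusted p = 5.5e-07 and 4e-06) and PRKCD by 0.38 and 0.51 (adjusted p = 3.5e-05 and 4.7e-05). PRKCE fell by 1.76 in B-K562 (adjusted p = 8.7e-07) and by 0.76 in G-K562 cells (adjusted p = 0.0022), and PRKCZ differed by -0.67 and -1.06 (adjusted p = 9.8e-06 and 1.3e-06). PRKCB was 0.39 lower in B-K562 than V-K562 (adjusted p = 6.3e-06) and 0.74 higher in G-K562 than B-K562 cells (adjusted p = 1.2e-08). PRKCQ was 0.47 lower in G-K562 than V-K562 cells (adjusted p = 0.0004) and 0.76 lower than in B-K562 cells (adjusted p = 1.8e-07), and PRKCI 0.30 lower than in B-K562 cells (adjusted p = 8.2e-05).

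Of 18 tested genes that make or cleave PIP2, 8 were higher and 5 lower in B-K562, 8 and 9 in G-K562, and 5 and 6 between the BASP1 lines, with medians of 0.14, -0.13 and -0.11 and the same shares of all genes called. The phospholipase PLCB4 fell most, from 58.0 ± 9.8 in V-K562 to 2.67 ± 1.15 in G-K562 libraries, and G-K562 differed from B-K562 by -3.28 (adjusted p = 4.3e-08). Between G-K562 and V-K562 cells PLCB4 passed the filter only through the V-K562 libraries (50 to 69, beside 2 to 4 in G-K562 libraries). The fall from V-K562 is therefore described without a p-value. In B-K562 cells it was 0.76 lower (adjusted p = 0.0021), a call lost with quantile normalization (-0.29, adjusted p = 0.18). PLCD1 fell in both lines, by 0.67 (adjusted p = 6e-08) and 1.51 (adjusted p = 3.9e-09), and PLCD3 by 0.96 in B-K562 cells (adjusted p = 1.6e-07). PLCB2 fell by 0.59 in G-K562 cells (adjusted p = 8.5e-05). PIP5K1C, a PIP2-producing kinase, rose by 0.76 and PLCG2 by 0.79 in G-K562 cells (adjusted p = 2.4e-05 and 0.00054), and PIP4K2C by 0.35 in B-K562 and 0.70 in G-K562 cells (adjusted p = 5.5e-05 and 1.6e-06). PLCB1 and PI4KA rose by 0.71 and 0.54 in B-K562 cells (adjusted p = 0.00019 and 2.5e-06), and PI4K2A was 0.59 lower in G-K562 than B-K562 cells (adjusted p = 4.3e-07).

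The genes most like each of the 8 were ranked by Pearson's r of log2(value + 1) over the 9 RNA-seq libraries, which share their lines, so that r mainly orders genes by their 3 line means. Most like BASP1 were PATZ1 (r = 0.996), KCTD15, HTATSF1P2, JMJD8 and ASIC4 (r = 0.994 for all 4), which were higher on average in both BASP1 lines than in V-K562 cells. PATZ1 had means of 308 in V-K562, 614 in B-K562 and 641 in G-K562 libraries. For MARCKS they were ZSCAN31 (r = 0.994) and RASSF8 (0.993), for MARCKSL1 PMPCA (0.999), and for GAP43 NFYB (0.992) and COX7A2L (0.991). For the enzymes they were IBA57 (0.996) and KIF25-AS1 (0.995) for NMT1, DAP and CCND2 (both 0.995) for NMT2, GDF2 and PHKA2 (both 0.997) for METAP1, and ENSA and FAM98B (both 0.992) for METAP2. Among the 8 genes themselves, r was 0.98 between MARCKSL1 and METAP2. It was -0.92 between GAP43 and NMT1, -0.92 between MARCKS and METAP2, -0.91 between NMT1 and NMT2 and -0.91 between MARCKS and MARCKSL1.

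No gene within 1 Mb of BASP1 rose as much as BASP1 in either line, and neither did any other gene tested, so this is no feature of the locus. The 3 neighbours tested in B-K562 cells lay between -1.02 and 2.88, with 1 called higher and 2 lower, and the 2 tested in G-K562 cells between -0.45 and -0.05, beside 9.82 and 10.40 for BASP1. The single tested neighbour of GAP43 was called lower in B-K562 cells (-1.77), as GAP43 was, and was not called in G-K562 cells (0.20). The single tested neighbour of MARCKS was called in the opposite direction in each comparison (0.49 in B-K562, -0.26 in G-K562 and -0.75 between the BASP1 lines). The 37 neighbours of MARCKSL1 had a median of -0.21 in B-K562 cells, where MARCKSL1 rose by 0.89, and of -0.42 in G-K562 cells, where it fell by 0.65. Of the 11 neighbours of METAP1 5 were lower and 3 higher in G-K562 cells (median -0.34), and of the 10 of METAP2 7 were lower and 1 higher (median -0.28).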

How the data were processed

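For each derivative 3 cultures were profiled per assay. The authors mapped RNA-seq reads to GRCh38 with STAR, removed duplicates and assigned read pairs to RefSeq transcripts with Subread, and the deposited RNA-seq signal values are those counts after DESeq2 size-factor scaling and rounding, in a table per comparison with V-K562. ATAC-seq reads came from DNase-treated cells and were mapped with BWA-MEM. The deposited ATAC-seq signal values are tags at the summit and over the interval of peaks that the authors called with MACS2 per library after equalising tag numbers. Interval starts count from 0 and were raised by 1. The authors' own fold changes and p-values in the deposited tables were not used.

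Genes that reached a value of 10 in 3 or more libraries were tested with limma 3.58.1 (R 4.3.3; trend, Benjamini-Hochberg over all genes) on log2(value + 1), since the values are not raw counts. For G-K562 against B-K562 all 9 libraries were fitted, the B-K562 values multiplied by 1.017. ATAC-seq intervals were merged into 85549 regions, valued by the highest summit, scaled by a trimmed mean (30% of log ratios and 5% of means trimmed), floored at 17 and tested where at least 3 libraries had a peak. Calls are at an adjusted p of at most 0.05. The tests were checked on simulated data.

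The 8 genes and the gene lists were chosen with earlier results of these data known. Named besides the 8 are, per list, comparison and direction, up to 3 called genes with the largest change, and the genes most like each of the 8 (5 for BASP1, 2 for the others). A few items that this rule names are not reported here. Regions are described singly where they overlap a start (within 500 bp), were called, or lie in BASP1. Sequences come from GRCh38 and GENCODE v44. Alternatives were other filters, pseudocounts, normalizations, floors and merges, leaving out a library, and the replicate number as a block.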

Additional observations from a re-analysis of the deposited data

Results flagged for a closer look

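In 3 genes the BASP1 lines were called in opposite directions against V-K562 cells and differed by a direct test of G-K562 against B-K562 cells in the fit of all 9 libraries. The direct difference was 5.21 on the log2 scale for MARCKS (adjusted p = 8.1e-10), with all 3 B-K562 libraries below and all 3 G-K562 libraries above the V-K562 libraries. It was -1.54 for MARCKSL1 (adjusted p = 2.2e-10) and -0.62 for METAP2 (adjusted p = 3.3e-07), with the B-K562 libraries above and the G-K562 libraries below. The share of all genes with such opposite calls was not computed. Since 75.8%, 66.9% and 78.5% of all genes were called in these comparisons, the count is not read as a feature of the group. No ATAC-seq region of the 8 genes had calls in opposite directions in the BASP1 lines. Groups of 3 libraries are too small for a test of single outlying libraries.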

How the results depend on the processing

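For the 8 genes the number of RNA-seq calls stayed at 8, 6 and 8 in the alternatives, apart from BASP1, which was not tested where a value of at least 10 was asked of every library. The ATAC-seq calls moved more. Scaling within 20 bins of GC content gave 2 region calls in B-K562 against V-K562 cells, where 4 were first computed. These included the METAP1 region chr4:99023782-99024362 (adjusted p = 0.025), which was not called at first. A peak in every library, which drops regions from the test, gave 2 calls there. Both were new, at the same METAP1 region and the NMT1 start (adjusted p = 0.017 and 0.01). It gave 6 calls instead of 12 in G-K562 against V-K562 cells and 3 instead of 5 between the BASP1 lines. Such totals can hold new calls. With a library left out the calls ranged from 1 to 4, from 7 to 10 and from 3 to 5. The split of the B-K562 calls went from 1 higher and 3 lower to 3 higher and 0 lower without scaling and to 2 and 0 with GC bins, that of the G-K562 calls from 6 and 6 to 7 and 4 and to 4 and 6, and that between the BASP1 lines from 2 and 3 to 4 and 2 and to 2 and 4. Over all regions, 13136 calls in B-K562 cells became 7991, 7016 and 7360 without B-K562 replicate 1, 2 and 3, and a peak in every library took 22734 calls in G-K562 cells to 13779 and 16768 between the BASP1 lines to 8966. The cause of these shifts was not tested, beyond the fewer regions or libraries fitted.

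Apart from ACSL6 in B-K562 cells and the METAP1 start in G-K562 cells, the values that changed sign were not called as first computed. ACSL6 was 0.011 in B-K562 cells with quantile normalization, and NMT2 RNA was 0.015 in G-K562 cells with equal totals. With GC bins, the B-K562 differences were -0.019 at the MARCKS intron, -0.25 at the MARCKSL1 start, -0.19 at the METAP1 start and -0.18 at the NMT2 start, and the G-K562 differences -0.074 at the METAP1 start, 0.043 at the METAP1 intron and -0.35 at the NMT2 start (adjusted p = 0.048). Between the BASP1 lines BASP1 was -0.078 with GC bins and -0.018 with the mean pileup, the NMT1 start -0.060 with the mean pileup and the NMT2 start 0.14 without scaling. With a library left out, ranges that crossed 0 were -0.080 to 0.061 for NMT2 RNA in G-K562 cells, -0.056 to 0.30, -0.038 to 0.14 and -0.029 to 0.17 for the MARCKS intron, MARCKSL1 start and METAP2 downstream regions in B-K562 cells, -0.043 to 0.20 for the NMT2 start in G-K562 cells, and -0.042 to 0.10, -0.014 to 0.39, -0.048 to 0.071 and -0.15 to 0.069 for BASP1, the METAP1 intron, the NMT1 start and the NMT2 start between the BASP1 lines.

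Replicate numbers did not pair the RNA-seq libraries. In ATAC-seq, libraries with the same number leaned together weakly, which the tests as first computed leave out. The correlation of deviations of libraries with the same number was -0.08 to 0.136 in RNA-seq and 0.008 to 0.122 in ATAC-seq over 9 pairs each, and a library correlated best with its own number in 4 of 18 and 14 of 18 cases. With the replicate block the RNA-seq calls were 8, 6 and 8, and the ATAC-seq calls 4, 12 and 6. A stricter caller score was not run, since the intervals hold no score. Depth limits GAP43, MARCKS in V-K562 and B-K562 cells and BASP1 in V-K562 cells most, with values under 100, and regions with summits near 17 tags.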
